A study of Mus musculus with 8 samples.

Results

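Long non-coding RNA genes with a name of their own were followed in mouse embryonic stem cells (ESCs) that carry a knockout of Zfp462 and in their controls. The members were chosen by gene symbol, with earlier results of these data known. They were every gene called Platr or Snhg with a number, and Lncenc1, Miat, Neat1, Malat1, Gas5, Dancr, Tug1, Epb41l4aos, Mir17hg and Mir124a-1hg. Of 55401 genes in the deposited table, 53 matched, and 51 had at least 10 counts over the 8 libraries; Platr30 and Snhg9, with 8 counts each, were set aside. The 51 comprise 28 Platr genes, 16 hosts of small nucleolar RNAs (snoRNAs), 4 nuclear RNAs (Malat1, Neat1, Miat and Tug1), 2 microRNA hosts and Lncenc1. The annotation does not call all of them non-coding: in GENCODE M21, 3 of the 51 (Platr17, Platr25 and Snhg11) are typed as protein coding.

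All cells were of R1, a mouse ESC line, and poly(A) RNA was sequenced from 2 libraries in each of 4 groups. The groups were Zfp462 knockout embryoid bodies (EBs, clusters of ESCs that differentiate in suspension) after 3 days, control EBs after 3 days (genotype label WT), Zfp462 knockout ESCs in serum with the cytokine LIF, and control ESCs in the same medium. The study asked how the loss of Zfp462, a zinc finger gene, affects self-renewal and differentiation. The labels name stable knockout lines but give neither the allele nor the number of clones. Whether a group's libraries stem from separate cultures is not stated, so p-values measure the spread between these libraries only.

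Most members share little beyond a long transcript with no assigned protein product. A snoRNA host is spliced to release small guide RNAs from its introns, which direct the chemical modification of ribosomal RNA. The spliced remainder is often read briefly by ribosomes and then degraded by nonsense-mediated decay, and many hosts begin, like ribosomal protein genes, with a run of pyrimidines. Neat1 builds paraspeckles and Malat1 lies in nuclear speckles, both bodies of RNA and RNA-binding protein in the nucleus. A microRNA host is cut in the nucleus to give hairpins, and Platr genes (pluripotency-associated transcripts) and Lncenc1 were named from their activity in mouse ESCs. The libraries hold poly(A) RNA, so host transcripts were counted and mature snoRNAs and microRNAs were not measured.

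Mir17hg carries the hairpins of 6 microRNAs in the order miR-17, miR-18a, miR-19a, miR-20a, miR-19b and miR-92a. Their mature strands are shown because the host's level is described here in their place. They are from RefSeq on GRCm38.p6, on the plus strand between chr14:115043684-115043706 (miR-17-5p) and chr14:115044476-115044496 (miR-92a-3p), and the capitals mark the seed, bases 2 to 8, which pairs with target RNAs.
miR-17-5p: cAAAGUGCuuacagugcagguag
miR-20a-5p: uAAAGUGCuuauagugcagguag
miR-18a-5p: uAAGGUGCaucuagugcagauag
miR-19a-3p: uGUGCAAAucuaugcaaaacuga
miR-19b-3p: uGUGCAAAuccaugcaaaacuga
miR-92a-3p: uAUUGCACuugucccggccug
The 6 fall into 4 seeds: miR-17-5p shares its seed with miR-20a-5p, miR-19a-3p shares its seed with miR-19b-3p, and the other two each have their own.

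A pyrimidine run of at least 6 bases begins near the annotated start in 8 of 14 snoRNA hosts. It can lie before the start, as in Snhg10, or within the transcript, as in Snhg5. The 8 are therefore not a count of transcripts that begin with the run. Each window gives 20 bases before the annotated start and 40 bases from it onwards, from RefSeq on GRCm38.p6. The capitals mark the longest unbroken run of C and T that begins within 10 bases of the start, on the transcribed strand. The first 5 hosts have a run of at least 6 bases, and the last 2 are shown as hosts with shorter runs. The RefSeq start of Snhg14 lies outside the deposited gene model, upstream of it.
Gas5 (chr1:161035146-161035205, the later of 2 listed starts): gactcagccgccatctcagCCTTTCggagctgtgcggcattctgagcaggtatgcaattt
Snhg1 (chr19:8723467-8723526): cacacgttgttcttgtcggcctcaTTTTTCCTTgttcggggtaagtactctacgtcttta
Snhg12 (chr4:132308658-132308717): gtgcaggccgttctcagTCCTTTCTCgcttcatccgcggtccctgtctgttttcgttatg
Snhg17 (chr2:158361470-158361529, one of 2 listed starts): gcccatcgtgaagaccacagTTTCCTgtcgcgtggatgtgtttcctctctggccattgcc
Snhg5 (chr9:88522858-88522917): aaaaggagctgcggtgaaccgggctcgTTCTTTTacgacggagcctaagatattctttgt
Snhg14 (chr7:60450138-60450197): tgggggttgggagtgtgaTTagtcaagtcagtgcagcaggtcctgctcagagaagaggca
Snhg20 (chr11:117076763-117076822): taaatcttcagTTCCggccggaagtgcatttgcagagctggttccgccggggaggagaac
Epb41l4aos was left out of the search. Of the other hosts, 14 had a RefSeq start, and 8 of these had a run of at least 6 bases (Gas5, Snhg1, Snhg5, Snhg8, Snhg10, Snhg12, Snhg17 and Snhg18), against 25.3% of 27025 genes searched the same way. The run is a description of the letters in this window, and its part in any level below was not tested.

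The libraries held 12119763 to 16228426 gene counts, of which the members took 0.202 to 0.256%. Zfp462 had CPM values of 102 and 102 in knockout EBs, 153 and 130.3 in control EBs, 104 and 107 in knockout ESCs, and 183 and 197 in control ESCs, and it was lower in knockout than in control cells in both states without being lost (log2 fold change ± standard error -0.47 ± 0.10 (adjusted p = 0.0207) in EBs and -0.85 ± 0.10 (adjusted p = 0.000366) in ESCs, edgeR's quasi-likelihood test with Benjamini-Hochberg adjustment). The 7 ESC markers and the 8 extraembryonic endoderm markers were each above 10 counts in every library. The extraembryonic endoderm markers had summed CPM of 3763 and 4122 in knockout EBs, 1867 and 1941 in control EBs, 6278 and 6140.3 in knockout ESCs, and 1549.99 and 1587 in control ESCs, so this list moved with the genotype. Their part in the knockout differences below was not tested. Some libraries stood apart. The log2 difference between the knockout ESC libraries followed the GC content of the genes (r = 0.691 over 11328 genes), and knockout EB replicate 1 held 2063 CPM of 10 adult liver transcripts, against 157 CPM in knockout EB replicate 2 and 20.1 to 104 CPM in the other 6 libraries.

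More members were called between EBs and ESCs than between genotypes. Of 46 members with enough counts to be tested, 13 rose and 7 fell in knockout EBs relative to knockout ESCs (adjusted p below 0.05), where 8.23% of all 17125 genes tested rose and 7.11% fell (15.3% together). In control EBs relative to control ESCs, 13 rose and 9 fell, where 8.60% of all genes rose and 9.63% fell (18.2% together). The same 13 genes rose in both genotypes, and 5 of the genes that fell did so in both. The comparisons use different libraries, and over the 46 members their log2 fold changes had a Pearson correlation of 0.882, with the same sign in 38. With either knockout EB library left out, fewer members rose and fewer fell in knockout cells. Leaving out either control ESC library, which is not in that comparison's groups, also left fewer that fell in knockout cells. All 8 libraries share 1 estimate of the spread. In control cells, fewer members rose and fewer fell without either control EB library or without either control ESC library. Fewer of all genes were called in each of these runs as well. Without knockout ESC replicate 2, slightly fewer members but more of all genes were called in knockout cells.

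**Figure D1:**
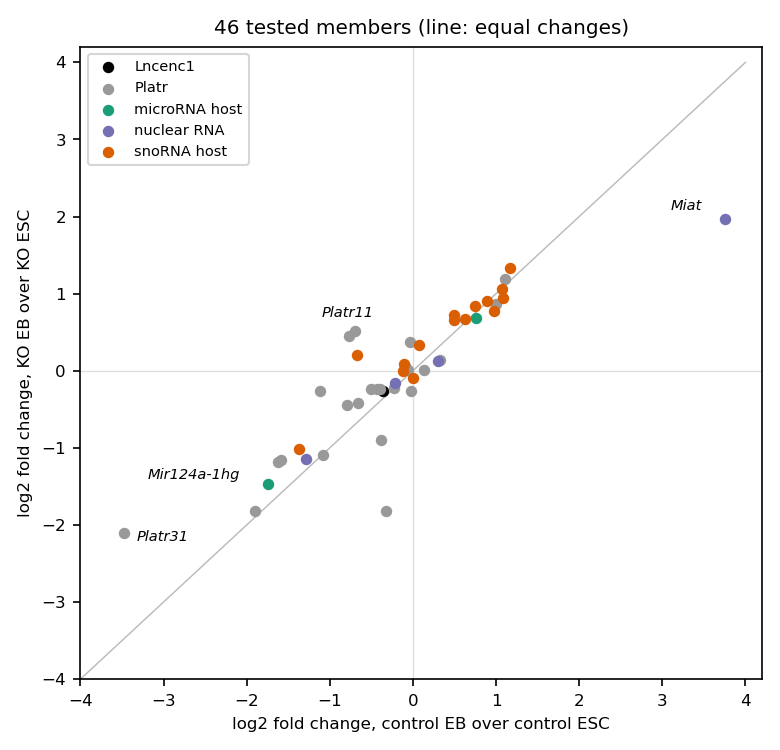
Log2 fold change of EBs over ESCs in knockout cells (y axis) and in control cells (x axis), 1 point for each of the 46 tested members, coloured by class, with a line where both changes are equal. Points lie near the line for most members (r = 0.882), Miat lies at 1.97 in knockout and 3.75 in control cells, and most snoRNA hosts gather in the upper right.

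The snoRNA hosts made up 9 of the 13 genes that rose. Of 15 tested, 9 rose and 1 fell in knockout EBs, with a median log2 fold change of 0.67, and 9 rose and 1 fell in control EBs, with a median of 0.49; the median over all genes tested was 0.00 in knockout and -0.01 in control cells. The 9 were Gas5, Snhg1, Snhg5, Snhg6, Snhg12, Snhg14, Snhg15, Snhg17 and Dancr, and the hosts together had summed CPM of 1025 and 1200.4 in knockout EBs, 1202 and 1358 in control EBs, 645 and 676 in knockout ESCs, and 803 and 782 in control ESCs. All 16 hosts hold at least 1 annotated snoRNA on their own strand. In bulk libraries, a change in the cells that make an RNA and a change in RNA per cell cannot be told apart.

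Gas5 (chr1:161034422-161038539, plus strand), a gene named for its accumulation in growth-arrested cells and host of 10 annotated snoRNAs, had CPM values of 131 and 177 in knockout EBs, 164 and 195 in control EBs, 80.7 and 83.3 in knockout ESCs, and 103 and 91.96 in control ESCs. Snhg1 (chr19:8723475-8726443, plus strand), host of 8 snoRNAs of the box C/D kind, had CPM values of 129 and 167 in knockout EBs, 149 and 187 in control EBs, 67.01 and 74.3 in knockout ESCs, and 82.6 and 77.95 in control ESCs. Every EB library of these genes lay above every ESC library, while the EB libraries of the genotypes overlapped. Gas5 was 1.88-fold higher in knockout EBs than in knockout ESCs, a log2 fold change of 0.91 ± 0.14 (adjusted p = 0.00265), and its log2 fold change in control cells was 0.89 ± 0.14 (adjusted p = 0.00225). That of Snhg1 was 1.07 ± 0.15 (adjusted p = 0.00104) in knockout cells and 1.07 ± 0.14 (adjusted p = 0.000747) in control cells. Exons of Gas5 overlap other annotated genes, mostly its own snoRNAs, over 17.8% of their length, and those of Snhg1 over 20.9%. Both were called with any of the 8 libraries left out.

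Snhg5 (chr9:88495268-88523562, minus strand), host of Snord50a and Snord50b, had CPM values of 105 and 123 in knockout EBs, 123 and 140.4 in control EBs, 58.99 and 74.4 in knockout ESCs, and 62.9 and 71.3 in control ESCs. Snhg17 (chr2:158353700-158361580, minus strand) had CPM values of 95.1 and 108 in knockout EBs, 106 and 111 in control EBs, 58.8 and 54.8 in knockout ESCs, and 66.03 and 63.2 in control ESCs. In both genes the EB libraries were again all above the ESC libraries, and knockout and control overlapped in EBs. Snhg5 changed by 0.77 ± 0.14 (adjusted p = 0.00487) in knockout and 0.97 ± 0.14 (adjusted p = 0.000975) in control cells, and Snhg17 by 0.84 ± 0.10 (adjusted p = 0.000459) in knockout and 0.75 ± 0.10 (adjusted p = 0.000702) in control cells, on the log2 scale. No library, left out, ended these 4 calls.

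Snhg12 (chr4:132308623-132311024, plus strand), with 5 snoRNAs inside it, had CPM values of 51.6 and 65.4 in knockout EBs, 59.9 and 58.3 in control EBs, 34.7 and 38.8 in knockout ESCs, and 39.98 and 36.7 in control ESCs. Snhg15 (chr11:6525591-6528779, minus strand), with Snora9, had CPM values of 76.5 and 87.5 in knockout EBs, 65.2 and 73.4 in control EBs, 51.6 and 48.1 in knockout ESCs, and 48.9 and 49.7 in control ESCs. Snhg6 (chr1:9941959-9944118, minus strand) had CPM values of 39.3 and 43.4 in knockout EBs, 43.4 and 48.2 in control EBs, 25.3 and 27 in knockout ESCs, and 34.8 and 30.3 in control ESCs, and 11.1% of its exon length lies opposite Mcmdc2, whose reads cannot be told apart from it without a stated strand setting. The ranges of EB and ESC libraries did not overlap for any of the 3 genes in either genotype. Their log2 fold changes in knockout cells were 0.67 ± 0.13 (adjusted p = 0.00806) for Snhg12, 0.72 ± 0.11 (adjusted p = 0.00212) for Snhg15 and 0.66 ± 0.13 (adjusted p = 0.00716) for Snhg6. In control cells they were 0.63 ± 0.13 (adjusted p = 0.00886) for Snhg12, 0.49 ± 0.11 (adjusted p = 0.0123) for Snhg15 and 0.49 ± 0.12 (adjusted p = 0.0214) for Snhg6. The control calls of Snhg12 and Snhg6 were lost without any of the 4 control libraries (adjusted p from 0.0522 to 0.108 for Snhg12 and from 0.0584 to 0.198 for Snhg6). That of Snhg15 was lost without control ESC replicate 1 (0.0986), control ESC replicate 2 (0.0975) or control EB replicate 2 (0.0967). In knockout cells, leaving out knockout EB replicate 2 ended the calls of Snhg12 (0.111) and Snhg6 (0.0844).

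Dancr (chr5:74093060-74095406, plus strand), which holds Snora26 and in human skin progenitors is known to hold back differentiation, had CPM values of 21.2 and 21.6 in knockout EBs, 21.7 and 24.2 in control EBs, 12.4 and 9.75 in knockout ESCs, and 13.03 and 8.72 in control ESCs. Its EB libraries lay close together at about the same level in both genotypes, and all above the ESC libraries. The log2 fold change was 0.95 ± 0.21 (adjusted p = 0.0136) in knockout cells, lost without knockout EB replicate 1 (0.0688) or replicate 2 (0.071). It was 1.09 ± 0.21 (adjusted p = 0.00549) in control cells, lost without control EB replicate 2 (0.0515) or control ESC replicate 2 (0.0784).

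**Figure D2:**
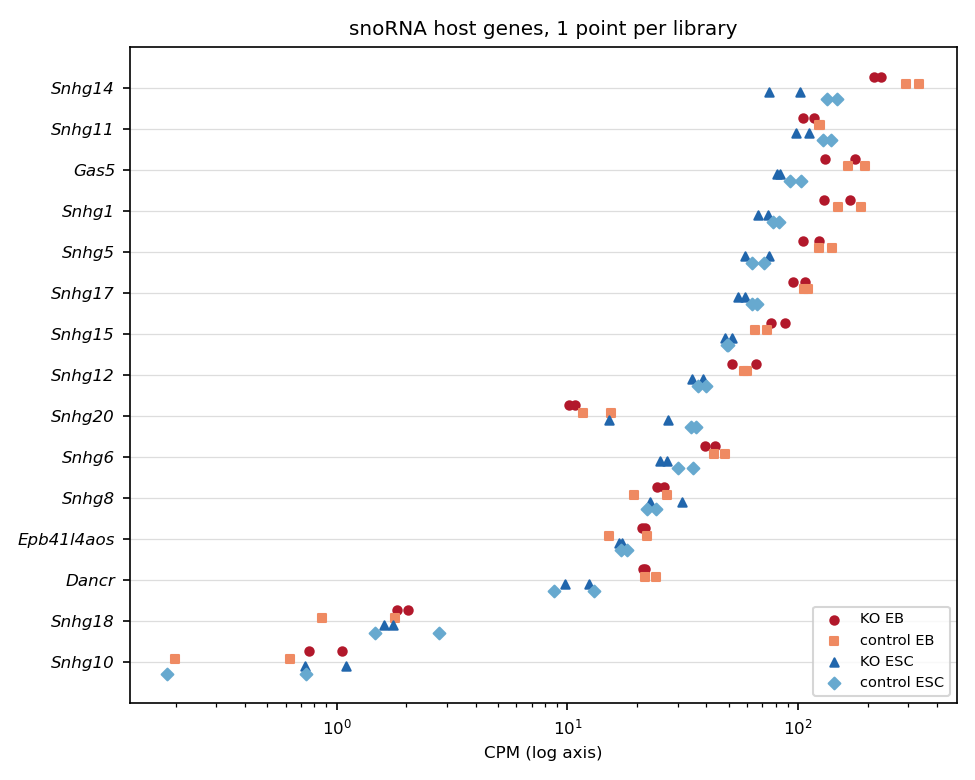
Level of the 15 tested snoRNA hosts in CPM on a log axis, 1 point per library, with the 4 groups as separate symbols in each row and hosts ordered by their mean in control ESCs. For Gas5, Snhg1, Snhg5, Snhg17 and Snhg14 all EB points lie to the right of all ESC points, and Snhg20 lies lower in EBs than in ESCs of the same genotype.

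Snhg14 and Snhg20 moved in opposite directions. Snhg14 (chr7:59307924-59975759, minus strand) is a transcript of the imprinted Prader-Willi and Angelman region that runs antisense to Ube3a and holds 208 annotated snoRNAs. It had CPM values of 213 and 229.7 in knockout EBs, 293 and 335 in control EBs, 74.4 and 102 in knockout ESCs, and 147 and 133 in control ESCs. The groups formed a ladder without overlap, with control EBs highest, then knockout EBs, control ESCs and knockout ESCs. Snhg14 rose in EBs by 1.33 ± 0.14 (adjusted p = 0.00023) in knockout and 1.17 ± 0.14 (adjusted p = 0.00035) in control cells on the log2 scale. Its log2 fold change of knockout over control was -0.51 ± 0.14 (adjusted p = 0.0548) in EBs, short of the threshold, and -0.67 ± 0.14 (adjusted p = 0.0101) in ESCs. Once the GC trend was removed, the EB difference was called (-0.64 ± 0.08, adjusted p = 0.000133). That correction also raised the number of all genes called lower in knockout EBs from 350 to 2248. The ESC call was lost without control ESC replicate 1 (0.104) or replicate 2 (0.0562). Genes on the opposite strand, Ube3a among them, overlap 6.91% of its exon length.

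Snhg20 (chr11:117076008-117078955, plus strand), with 1 snoRNA and 1 microRNA inside it, was the only tested host that fell. Its levels were CPM values of 10.8 and 10.2 in knockout EBs, 15.4 and 11.7 in control EBs, 27.3 and 15.1 in knockout ESCs, and 34.4 and 36.2 in control ESCs. Within each genotype the EB libraries lay below the ESC libraries, and knockout ESC replicate 2 lay within the range of the control EBs. The log2 fold change was -1.02 ± 0.26 (adjusted p = 0.0244) in knockout cells, lost without knockout EB replicate 1 (0.118), knockout EB replicate 2 (0.13), knockout ESC replicate 1 (0.0547), control ESC replicate 1 (0.0565) or control ESC replicate 2 (0.0571). It was -1.37 ± 0.25 (adjusted p = 0.00399) in control cells, lost without control EB replicate 2 (0.0543). Of the remaining hosts, Snhg11 (chr2:158375638-158386151, plus strand) had CPM values of 105 and 117 in knockout EBs, 124 and 123 in control EBs, 111 and 97.5 in knockout ESCs, and 128 and 139 in control ESCs and passed no test between EBs and ESCs. Epb41l4aos had CPM values of 21.01 and 21.8 in knockout EBs, 15.2 and 22.04 in control EBs, 17.2 and 16.7 in knockout ESCs, and 18.2 and 17.1 in control ESCs, with a log2 fold change of 0.33 ± 0.18 in knockout and 0.07 ± 0.18 in control cells, and its groups overlapped in control cells. Snhg8, Snhg10 and Snhg18 did not pass the test either, with control log2 fold changes of 0.00 ± 0.19, -0.11 ± 0.85 and -0.67 ± 0.46, and Snhg3 had too few counts to be tested. Exons of Snhg3 overlap other annotated genes over 86.3% of their length, and how reads in overlaps were counted is not given. Of the 8 hosts with a pyrimidine run near the start, 5 rose. Of the 6 other hosts searched that had a RefSeq start, Dancr, Snhg14 and Snhg15 rose and Snhg20 fell.

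Of 14 proteins of snoRNA particles and their assembly, 2 rose and 1 fell in knockout EBs, and 3 rose in control EBs, 21.4% called in each genotype beside 15.3% of all genes in knockout and 18.2% in control cells. Naf1, an assembly factor of box H/ACA particles, had CPM values of 113 and 102 in knockout EBs, 161 and 167 in control EBs, 77.9 and 62.01 in knockout ESCs, and 96.7 and 102 in control ESCs. Its control and knockout levels did not overlap in either state, and it rose in EBs by 0.62 ± 0.12 (adjusted p = 0.00699) in knockout and 0.72 ± 0.12 (adjusted p = 0.00221) in control cells. Its log2 fold change of knockout over control was -0.61 ± 0.12 (adjusted p = 0.0117) in EBs and -0.51 ± 0.12 (adjusted p = 0.0164) in ESCs. Gar1, a core protein of the same particles, rose by 0.48 ± 0.11 (adjusted p = 0.0147) in knockout and 0.71 ± 0.11 (adjusted p = 0.00147) in control EBs. Of 85 cytosolic ribosomal protein genes, 7 rose in knockout EBs (median log2 fold change 0.09) and 18 rose and 2 fell in control EBs (median 0.16), which is 8.24% called in knockout and 23.5% in control cells beside the same shares of all genes; Rps12 and Rpl13a rose in both.

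The nuclear RNAs went separate ways. Neat1 (chr19:5824708-5845478, minus strand), the scaffold of paraspeckles, had CPM values of 151 and 110.0 in knockout EBs, 149.9 and 135 in control EBs, 299 and 279 in knockout ESCs, and 339.9 and 356 in control ESCs. The highest EB library (151 CPM) lay below the lowest ESC library (279 CPM). These are counts of poly(A) RNA over the whole gene, so isoforms of Neat1 were not told apart, and paraspeckles were not measured. The log2 fold change of EBs over ESCs was -1.15 ± 0.13 (adjusted p = 0.000391) in knockout and -1.29 ± 0.13 (adjusted p = 0.000135) in control cells, and both calls held with any library left out. Malat1 (chr19:5795690-5802672, minus strand) had CPM values of 209 and 251 in knockout EBs, 248 and 278 in control EBs, 188 and 231 in knockout ESCs, and 204 and 224 in control ESCs, and Tug1 (chr11:3639785-3649673, minus strand), known from photoreceptors of the mouse retina, had CPM values of 145 and 137 in knockout EBs, 142 and 138 in control EBs, 138 and 177 in knockout ESCs, and 166 and 161 in control ESCs. The 4 groups of Tug1 differed little beyond the gap between knockout ESC libraries. In control cells the log2 fold change was 0.30 ± 0.13 (adjusted p = 0.132) for Malat1 and -0.22 ± 0.11 (adjusted p = 0.213) for Tug1. Both were short of the threshold, although the EB and ESC libraries did not overlap. With the compared groups alone, edgeR's test called Malat1 (adjusted p = 0.00135) and Tug1 (0.00948). It also called Malat1 with the replicate block (0.0454) and with the GC trend removed (0.00603), whereas DESeq2 called neither gene. Both passed in control cells when either knockout ESC library was left out, although neither is in the groups compared. The adjusted p of Malat1 was then 0.0196 without replicate 1 and 0.0184 without replicate 2, and that of Tug1 was 0.0105 and 0.0112. In knockout cells Tug1 passed without knockout ESC replicate 1 (0.0039).

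Malat1 is not polyadenylated at its mature end in cells. Near that end it carries a run of A in the genome itself, shown here because the libraries were selected on poly(A). In the GENCODE M21 transcript of 6983 bases, the capitals mark a run of 12 A at positions 6674 to 6685.
Malat1: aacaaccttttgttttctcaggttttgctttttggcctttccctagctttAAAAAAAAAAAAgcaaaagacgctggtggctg
How the run bears on the counts was not tested. Of 17 paraspeckle proteins, 3 rose in knockout EBs (17.6%, beside 8.23% of all genes that rose) and 5 in control EBs (29.4%, beside 8.60%), and none fell in either. Pspc1, a core paraspeckle protein, had CPM values of 102 and 108 in knockout EBs, 129 and 135 in control EBs, 75.5 and 77.2 in knockout ESCs, and 87.8 and 86.9 in control ESCs, and rose by 0.46 ± 0.09 (adjusted p = 0.00716) in knockout and 0.59 ± 0.09 (adjusted p = 0.00135) in control cells. Sfpq rose by 0.41 ± 0.08 (adjusted p = 0.0066) in knockout and 0.28 ± 0.08 (adjusted p = 0.0313) in control cells. Of 14 nuclear speckle proteins, 3 rose and 1 fell in knockout EBs (28.6% called, beside 15.3% of all genes), and 2 rose in control EBs (14.3%, beside 18.2%); Srsf6, a splicing factor, rose in both (0.51 ± 0.07 (adjusted p = 0.00125) in knockout and 0.38 ± 0.07 (adjusted p = 0.00502) in control cells).

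Miat (chr5:112213228-112229395, minus strand), a nuclear RNA known from retina and neurons, had the largest rise of all members and the only knockout call in EBs. It had CPM values of 1.88 and 1.60 in knockout EBs, 6.90 and 9.65 in control EBs, 0.437 and 0.437 in knockout ESCs, and 0.814 and 0.43 in control ESCs, from 25 and 21 counts in knockout EBs, 104 and 123 counts in control EBs, 6 and 6 counts in knockout ESCs and 10 and 7 counts in control ESCs. Control EBs stood above every other library, knockout EBs lay between, and the ESC groups overlapped below 1 CPM. Its log2 fold change of EBs over ESCs was 1.97 ± 0.45 (adjusted p = 0.0168) in knockout cells, and 3.75 ± 0.40 (adjusted p = 0.00015) in control cells, where it was 13.5-fold higher in EBs. The differentiation call in knockout cells was lost without knockout EB replicate 1 (0.115) or replicate 2 (0.0643). In knockout EBs Miat was 0.212 times its level in control EBs, a log2 fold change of -2.24 ± 0.35 (adjusted p = 0.00431). That call held with each library left out, the log2 fold change staying between -2.46 and -1.98, and was -2.36 ± 0.50 without knockout EB replicate 1. In ESCs the log2 fold change was -0.46 ± 0.52 (adjusted p = 0.633), and the difference between the states was -1.78 ± 0.64 (adjusted p = 0.275), which did not pass. Exons of Miat overlap other annotated genes over 30.4% of their length, most of it on the opposite strand, and reads of the strands cannot be told apart. The 7 neural markers had summed CPM of 43.98 and 38.4 in knockout EBs, 48.5 and 56.6 in control EBs, 49.4 and 49.3 in knockout ESCs, and 75.1 and 71.5 in control ESCs. The 5 early differentiation markers (Fgf5, Otx2, Dnmt3b, Pou3f1 and T) had summed CPM of 1102 and 1079 in knockout EBs, 1735 and 1836 in control EBs, 360 and 344 in knockout ESCs, and 301 and 324 in control ESCs, so this list was lower in knockout than in control EBs as Miat was. The part of either list in the level of Miat was not tested.

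**Figure D3:**
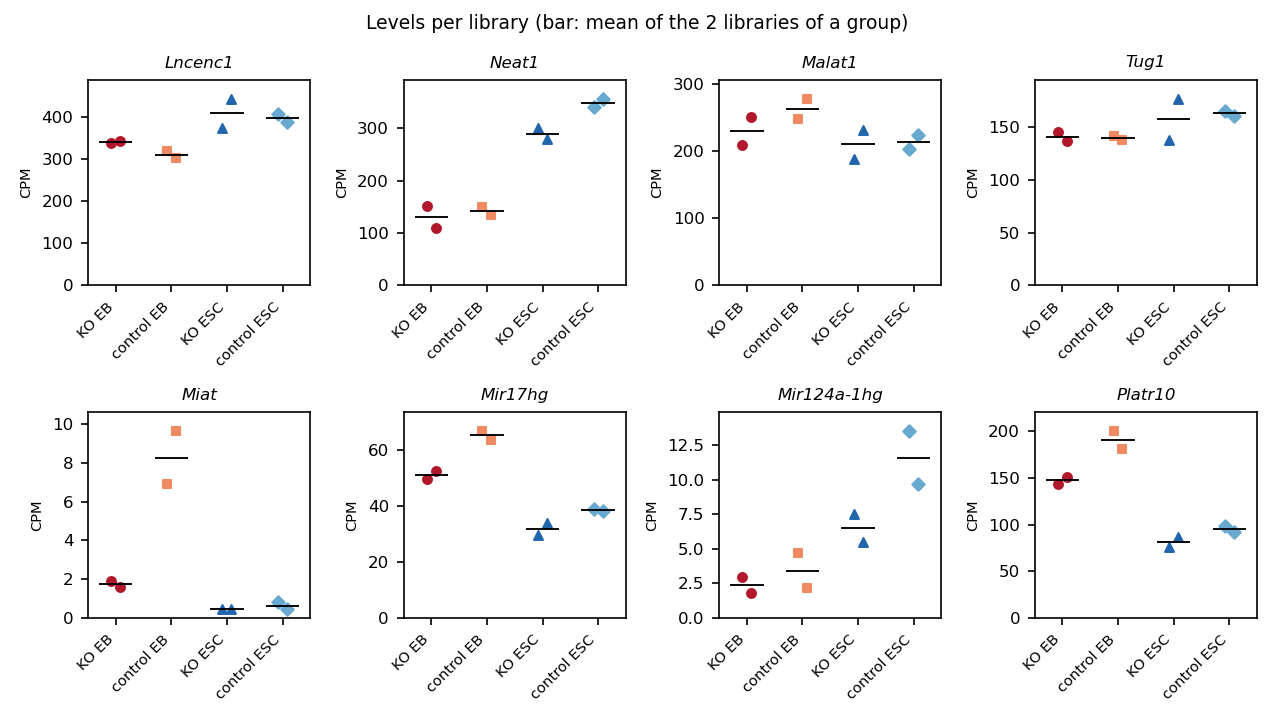
Level in CPM of 8 members, 1 point per library and a bar at the mean of the 2 libraries of a group, each panel with its own axis from 0. Neat1 lies lower and Mir17hg and Platr10 higher in EBs than in ESCs, Malat1 and Tug1 change by less, and Miat is highest in control EBs.

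The microRNA hosts moved in opposite directions. Mir17hg (chr14:115042879-115046727, plus strand), the host of the miR-17-92 cluster, whose microRNAs act in cell proliferation and survival, had CPM values of 49.6 and 52.4 in knockout EBs, 66.9 and 63.7 in control EBs, 29.5 and 34.1 in knockout ESCs, and 38.8 and 38.2 in control ESCs. Control EBs were highest, knockout EBs next, and no group overlapped another. It rose in EBs by 0.68 ± 0.11 (adjusted p = 0.00323) in knockout and 0.76 ± 0.11 (adjusted p = 0.00117) in control cells, and both calls held with any library left out. The knockout differences were -0.36 ± 0.11 (adjusted p = 0.083) in EBs and -0.28 ± 0.11 (adjusted p = 0.139) in ESCs, and both were called once the GC trend was removed (adjusted p = 0.00463 in EBs and 0.0269 in ESCs). With that correction, all genes called lower in knockout cells went from 350 to 2248 in EBs and from 1062 to 2431 in ESCs. Mir124a-1hg (chr14:64587331-64593961, plus strand), a host of miR-124, a microRNA of neurons, had CPM values of 2.94 and 1.75 in knockout EBs, 4.71 and 2.12 in control EBs, 7.51 and 5.46 in knockout ESCs, and 13.5 and 9.64 in control ESCs. It was highest in control ESCs, and its EB libraries overlapped between genotypes. It was lower in EBs, with log2 fold changes of -1.46 ± 0.40 (adjusted p = 0.035) in knockout and -1.74 ± 0.38 (adjusted p = 0.0105) in control cells. The knockout call was lost without knockout EB replicate 1 (0.0712), knockout EB replicate 2 (0.215), knockout ESC replicate 1 (0.0504) or either control ESC library (0.0635 and 0.0623), and the control call without control EB replicate 2 (0.0745) or control ESC replicate 1 (0.0984). Of 10 microRNA processing factors, 2 rose and 1 fell in knockout EBs (30% called, beside 15.3% of all genes) and 1 rose in control EBs (10%, beside 18.2%). Drosha, which cuts the host in the nucleus, rose in both (0.58 ± 0.08 (adjusted p = 0.00128) in knockout and 0.45 ± 0.08 (adjusted p = 0.00383) in control cells). In knockout cells Tarbp2, a partner of Dicer1, also rose (0.37 ± 0.11 (adjusted p = 0.0416)), and Ago2, which binds mature microRNAs, fell (-0.57 ± 0.10 (adjusted p = 0.00531)).

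Per kilobase of exon, Lncenc1 and Platr10 were the most abundant members in every group. Lncenc1 averaged, in CPM per kb, 103 in knockout EBs, 94.3 in control EBs, 124 in knockout ESCs and 121 in control ESCs. Platr10 averaged 84.5 in knockout EBs, 109 in control EBs, 46.4 in knockout ESCs and 54.5 in control ESCs on the same scale, and so led in control EBs. Lncenc1 (chr13:97434970-97497007, plus strand) had CPM values of 339.9 and 342 in knockout EBs, 319.7 and 303 in control EBs, 375 and 444 in knockout ESCs, and 409 and 389 in control ESCs. Its EB libraries lay below its ESC libraries in both genotypes, by a small margin. The log2 fold change was -0.26 ± 0.09 (adjusted p = 0.0808) in knockout cells, called without knockout ESC replicate 1 (0.000414). It was -0.36 ± 0.09 (adjusted p = 0.024) in control cells, lost without any of the 4 control libraries (adjusted p from 0.095 to 0.171). Platr10 (chr3:75647446-75655731, minus strand) had CPM values of 143 and 151 in knockout EBs, 200.4 and 181 in control EBs, 75.4 and 86.4 in knockout ESCs, and 98.8 and 91.5 in control ESCs, the opposite pattern, with control EBs highest and no overlap between groups. It rose in EBs by 0.87 ± 0.10 (adjusted p = 0.000469) in knockout and 1.00 ± 0.10 (adjusted p = 0.000131) in control cells, calls that held with any library left out.

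Of 24 Platr genes tested, 4 fell and 2 rose in knockout EBs, 25% called beside 15.3% of all genes, with a median log2 fold change of -0.24 beside 0.00 over all genes. In control EBs 5 fell and 2 rose, 29.2% called beside 18.2% of all genes, with a median of -0.41 beside -0.01. Platr28 (chr7:107243022-107300396, plus strand) had CPM values of 2.64 and 2.74 in knockout EBs, 1.86 and 1.65 in control EBs, 6.78 and 5.24 in knockout ESCs, and 6.19 and 4.48 in control ESCs, all EB libraries below all ESC libraries. Its log2 fold change was -1.16 ± 0.29 (adjusted p = 0.0233) in knockout cells, lost without knockout EB replicate 1 (0.155) or replicate 2 (0.131), and -1.59 ± 0.30 (adjusted p = 0.00519) in control cells, lost without control ESC replicate 1 (0.0551). Platr6, with group means of 1.31 to 4.07 CPM, fell too, with -1.18 ± 0.35 (adjusted p = 0.0451) in knockout and -1.62 ± 0.35 (adjusted p = 0.00979) in control cells. Platr31 was called lower in control EBs from 0 and 1 counts there against 7 and 7 counts in control ESCs, too few for a fold change. Platr26 (chr2:71719417-71730966, plus strand) had CPM values of 7.98 and 8.07 in knockout EBs, 5.30 and 4.16 in control EBs, 11.01 and 10.9 in knockout ESCs, and 7.98 and 8.42 in control ESCs, and the EB libraries of each genotype lay below its ESC libraries. The log2 change of EBs over ESCs was -0.45 ± 0.20 (adjusted p = 0.162) in knockout cells and -0.79 ± 0.21 (adjusted p = 0.027) in control cells, and leaving out control EB replicate 2 (0.135), control ESC replicate 1 (0.106) or control ESC replicate 2 (0.158) ended the control call.

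A pair of Platr genes fell in knockout EBs relative to knockout ESCs without a call in control cells. Platr15 (chr2:150704536-150706876, minus strand) had CPM values of 2.18 and 2.74 in knockout EBs, 0.862 and 1.18 in control EBs, 4.59 and 5.97 in knockout ESCs, and 2.36 and 1.97 in control ESCs, and Platr20 (chr11:51189833-51220418, minus strand) had CPM values of 3.39 and 2.82 in knockout EBs, 3.85 and 3.29 in control EBs, 6.49 and 5.10 in knockout ESCs, and 4.40 and 4.91 in control ESCs. EB libraries of both lay below the ESC libraries of the same genotype. Values for Platr15 were -1.10 ± 0.32 (adjusted p = 0.0432) in knockout and -1.08 ± 0.37 (adjusted p = 0.0677) in control cells, and for Platr20 -0.90 ± 0.27 (adjusted p = 0.0469) in knockout and -0.38 ± 0.27 (adjusted p = 0.354) in control cells, as log2 fold changes of EBs over ESCs. The Platr15 call was lost without control ESC replicate 1 (0.0733), control ESC replicate 2 (0.0721), knockout ESC replicate 2 (0.134), knockout EB replicate 1 (0.272) or knockout EB replicate 2 (0.153), and the Platr20 call without any library other than knockout ESC replicate 2 (adjusted p from 0.0579 to 0.276). Platr5 (chr1:88754890-88755736, plus strand) had CPM values of 4.52 and 5.86 in knockout EBs, 4.04 and 5.18 in control EBs, 2.77 and 1.75 in knockout ESCs, and 2.52 and 1.78 in control ESCs, and rose by 1.20 ± 0.34 (adjusted p = 0.0384) in knockout and 1.11 ± 0.34 (adjusted p = 0.0461) in control cells. Its EB libraries were all above its ESC libraries. The knockout call was lost without any library except knockout ESC replicate 1 (adjusted p from 0.0519 to 0.238), and the control call without any library except the knockout ESC ones (from 0.0724 to 0.29).

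**Figure D4:**
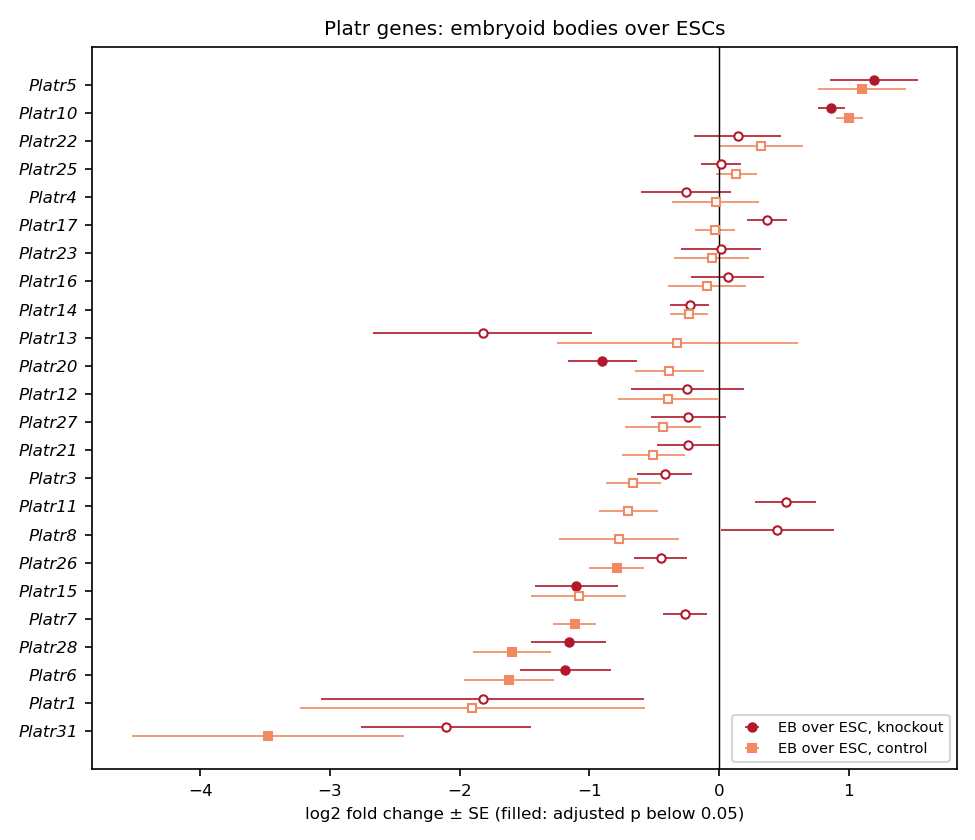
Log2 fold change of EBs over ESCs for the 24 tested Platr genes, in knockout and in control cells, with bars of 1 SE and filled symbols where the adjusted p was below 0.05. Platr5 and Platr10 lie to the right in both genotypes, Platr28 and Platr6 to the left, and for Platr7 and Platr11 the knockout value lies above the control value, a difference that did not pass the test.

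Few members differed between genotypes. In ESCs, 1 of 46 was higher and 5 were lower in knockout than in control cells, against background shares of 8.30% higher and 6.20% lower over all 17125 genes; in either direction the members' 13% is near the background of 14.5%. In EBs, none was higher and 1 (Miat) was lower, against a background of 4.75% higher and 2.04% lower (6.80% together). At an unadjusted p below 0.05, 6 members were higher and 4 lower, 10 of 46 beside 21.4% of all genes. DESeq2 called no member higher and 3 lower, and 788 of all genes higher and 383 lower. The direction of the ESC differences was lower for 63% of members and 53.2% of all genes. All 6 ESC calls were lost when either control ESC library was left out, and fewer of all genes were called as well. Without knockout ESC replicate 2, more members were lower and none higher, and more of all genes were called in either direction. With any 1 EB library left out, fewer members were lower in knockout ESCs, and fewer of all genes were called. In EBs, more members were called without either knockout ESC library, and so were more of all genes. Neither of these libraries is in the groups compared.

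Members just short of the threshold in EBs were Snhg14, Platr10, Platr26, Platr15 and Mir17hg. The log2 fold change of knockout over control EBs was -0.37 ± 0.10 (adjusted p = 0.0579) for Platr10 and 0.76 ± 0.21 (adjusted p = 0.061) for Platr26, and in each the libraries of the genotypes did not overlap. Without knockout ESC replicate 1 their adjusted p was 0.00284 for Platr10 and 0.0231 for Platr26, and without replicate 2 it was 0.0025 and 0.024. That of Mir17hg was then 0.0051 and 0.00464, that of Snhg14 0.000645 and 0.000596, and that of Platr15 0.027 and 0.0313. In ESCs, Snhg20 was just short of the threshold, with a log2 fold change of knockout over control of -0.73 ± 0.24 (adjusted p = 0.0696) and no overlap between the libraries of the genotypes; its difference in EBs was -0.38 ± 0.26 (adjusted p = 0.459). The ESC difference was called by DESeq2 (adjusted p = 0.0424), with the replicate block (0.0392), with the GC trend removed (0.00972), without the low-count filter (0.00104) and without knockout ESC replicate 1 (0.000354), and over all single libraries left out its adjusted p ran from 0.000354 to 0.306.

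Platr7 (chr10:84547417-84553338, minus strand) had CPM values of 18.5 and 14.7 in knockout EBs, 16.2 and 13.3 in control EBs, 19.5 and 20.3 in knockout ESCs, and 29.96 and 34.1 in control ESCs. Control ESCs stood above the other 3 groups, which lay between 13.3 and 20.3 CPM. The log2 fold change of knockout over control was 0.16 ± 0.17 (adjusted p = 0.638) in EBs and -0.69 ± 0.16 (adjusted p = 0.0182) in ESCs. That of EBs over ESCs was -0.26 ± 0.17 (adjusted p = 0.328) in knockout cells and -1.11 ± 0.17 (adjusted p = 0.00138) in control cells. Platr11 (chr9:118404097-118406099, minus strand) had CPM values of 6.78 and 7.69 in knockout EBs, 5.83 and 6.35 in control EBs, 4.23 and 5.90 in knockout ESCs, and 9.61 and 10.1 in control ESCs. It was again highest in control ESCs, and the lowest library was knockout ESC replicate 1. Its log2 fold change of knockout over control was 0.25 ± 0.23 (adjusted p = 0.596) in EBs and -0.96 ± 0.23 (adjusted p = 0.0187) in ESCs. Without control ESC replicate 1 or replicate 2, the ESC adjusted p was 0.0727 or 0.192 for Platr7 and 0.092 or 0.138 for Platr11.

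Platr17 (chr17:33905135-33906675, plus strand), which RefSeq lists as a synonym of Smim40 and GENCODE M21 types as protein coding, had CPM values of 17.5 and 19.2 in knockout EBs, 20.3 and 20.9 in control EBs, 15.7 and 12.7 in knockout ESCs, and 20.8 and 21.3 in control ESCs. Its knockout ESCs lay below every other library, with a log2 fold change of -0.57 ± 0.16 (adjusted p = 0.0349) against control ESCs, a call lost without any library except knockout ESC replicate 1 (adjusted p from 0.059 to 0.207). Snhg11, whose levels are given with the hosts, was lower in knockout ESCs, with a log2 fold change of -0.36 ± 0.10 (adjusted p = 0.0431), lost without any library except the knockout ESC ones (adjusted p from 0.0716 to 0.304). Platr15 was the member that was higher in knockout ESCs, by 1.29 ± 0.32 (adjusted p = 0.0232), 2.45 times its control level. Its difference in EBs was nearly as large, at 1.27 ± 0.37 (adjusted p = 0.0664), but short of the threshold, and in each state both knockout libraries lay above both control libraries. The ESC call of Platr15 was lost without control ESC replicate 1 (0.0977), control ESC replicate 2 (0.189) or knockout ESC replicate 2 (0.0641). The 7 ESC markers had summed CPM of 3381 and 3371 in knockout ESCs, against 4601 and 4686 in control ESCs, and their part in these differences was not tested.

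**Figure D5:**
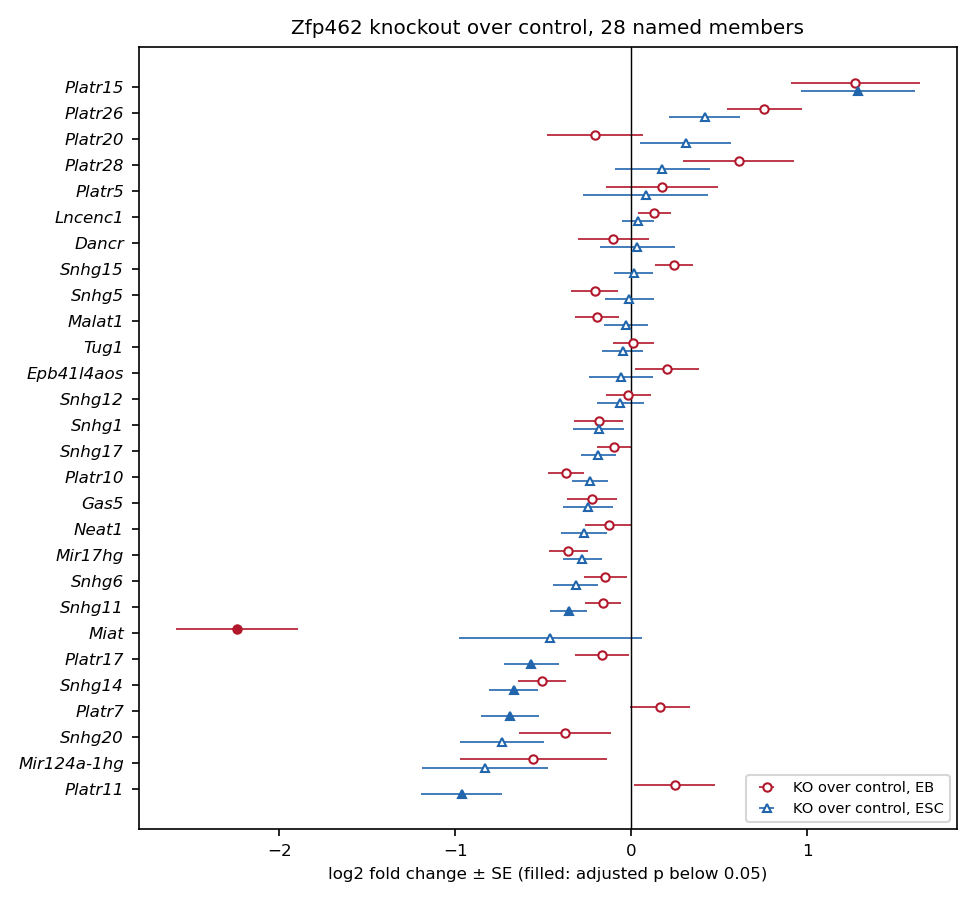
Log2 fold change of knockout over control for 28 members in EBs and in ESCs, with bars of 1 SE and filled symbols where the adjusted p was below 0.05. Platr15 lies at the right in both states, Miat at the far left in EBs only, and most snoRNA hosts lie slightly left of 0.

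The knockout effect was not shown to differ between EBs and ESCs for any member. The test of the difference called 0 of 46, where it called 1.38% of all genes (0.742% positive and 0.642% negative), and 3 members had an unadjusted p below 0.05, beside 12.5% of all genes; DESeq2 also called 0. The smallest adjusted p belonged to Platr11 (log2 difference 1.21 ± 0.33 (adjusted p = 0.128)), followed by Platr7 (0.85 ± 0.24 (adjusted p = 0.139)). Without knockout ESC replicate 2 both were called, and without knockout ESC replicate 1, Platr7 and Snhg20 were called. In both of these runs more of all genes were called than with every library kept.

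For each tested member the nearest other tested gene was taken, 4090 bases away in the median and overlapping it in 11 cases. The pairs are not all distinct: Snhg11 and Snhg17 are each other's neighbour, and Neat1 is also the neighbour of Malat1. In knockout differentiation 9 of the 46 neighbours and 20 members were called, where 15.3% of all genes were; 5 members were called together with their neighbour, 2 of them in the same direction. In control differentiation 17 neighbours and 22 members were called, where 18.2% of all genes were, 8 of them together and 4 in the same direction. Over the 46 pairs, log2 fold changes of member and neighbour had a Pearson correlation of -0.0139 in knockout and 0.178 in control differentiation. Snhg1 and Slc3a2, an amino acid transporter subunit 106 bases away on the other strand, rose together in both genotypes (Slc3a2 by 0.36 ± 0.10 in knockout and 0.39 ± 0.10 in control cells). Arl4c, 52669 bases from Platr5, rose by 1.26 ± 0.15 in knockout and 2.39 ± 0.15 in control cells, as Platr5 did. In knockout ESCs Platr11 and the gene model 2610509F24Rik, 795 bases away on its own strand, were both lower (-1.13 ± 0.28 for the neighbour). Near Platr15 and Platr7 the neighbour went the other way, Acss1 at -0.75 ± 0.17 and Ckap4 at 0.84 ± 0.19. Frmd8, the neighbour of Neat1, rose by 0.64 ± 0.14 in control EBs, where Neat1 fell.

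Of the 51 members, 27 were called in at least 1 comparison, 19 were tested and called in none, and 5 were not tested (Snhg3, Platr9, Platr19, Platr29 and Platr32, with 13 to 23 counts over all libraries). The uncalled ranged widely in level. Platr14 had mean CPM of 38.9 in knockout EBs, 48.4 in control EBs, 45.5 in knockout ESCs and 56.9 in control ESCs, whereas Platr1 had 0 to 12 counts in each library.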

How the data were processed

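The 8 libraries, 2 per group, were selected on poly(A), per the labels' protocols, and placed in groups by their labels. The deposited values are raw counts, whole numbers per gene beside each gene's summed exon length, per the file headers. HISAT2, featureCounts, DESeq2 and mm10 are named, without versions, in the submitters' processing notes. How strand and multi-mapping reads were handled is not given in the sources used, so reads of antisense partners cannot be told apart. Symbols were matched through GENCODE M21 for 55141 of 55401 IDs.

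The members, the gene lists and the tests were chosen with earlier results of these data known. Genes passing edgeR's filterByExpr (17125) were scaled by TMM and fitted over all 8 libraries with 1 mean per group by edgeR's quasi-likelihood test, without a replicate block. P-values were adjusted by Benjamini-Hochberg over all genes tested and called below 0.05. The biological coefficient of variation was 0.132. CPM used TMM-adjusted library sizes, and errors of log2 fold changes are standard errors. The tools were edgeR 4.0.16 with limma 3.58.1, and DESeq2 1.42.0, in R 4.3.3. Values are given for every library for each member called in at least 1 comparison with a mean of 5 CPM in its highest group, and for 10 members whatever their result (28 in all). From each gene list up to 3 genes per comparison with the smallest adjusted p were eligible for naming. Nearest neighbours were taken by gene-body distance.

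Alternatives were DESeq2, median-of-ratios factors, library totals, other filters, a replicate block, the compared groups alone, a GC correction (a spline with 5 degrees of freedom) and each library left out. The edgeR test was tried on simulated counts of 17125 genes, with changes placed in knockout ESCs and no GC trend. It recovered 64% of genes raised and 68% of genes lowered by a log2 fold change of 1. At a log2 fold change of 2 it recovered 94% of those raised and 86% of those lowered. There were 10 false calls in that comparison. Library totals limit the precision for members with few counts.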

Additional observations from a re-analysis of the deposited data

How the results depend on the processing

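For the 28 members with every library's value, the 46 called results kept their sign under each alternative run; of the 94 uncalled results, 37 changed sign under at least 1. Of 2576 alternative values, 2346 kept the side of the threshold, 134 lost a call and 96 gained one. Counts of members called moved more. In knockout against control EBs, 1 member was lower; DESeq2 gave 3, no low-count filter 3 (and 1 higher, against none), the compared groups alone 4 (and 2 higher), the GC correction 6 (and 1 higher), and the GC correction with the replicate block 7. In knockout against control ESCs, 1 higher and 5 lower became 2 and 11 with the GC correction, 2 and 12 with the GC correction and block, 1 lower with the compared groups alone, and 0 higher with DESeq2. In knockout differentiation, 7 that fell became 4 without the filter, 4 with the replicate block, 3 with DESeq2 and 1 with the compared groups alone, where 6 rose. The difference of the knockout effect gained 1 without the filter. Median-of-ratios factors gave the same counts of members. Counts over all genes moved with the settings too. In knockout against control EBs, 814 higher and 350 lower of 17125 genes became 1147 and 2248 of 17109 with the GC correction. The compared groups alone gave 1400 and 1267. In ESCs, 1421 and 1062 became 1766 and 2431 with the GC correction, and 980 and 395 with the compared groups alone. In knockout differentiation, 1410 that rose and 1217 that fell became 342 and 380 with the compared groups alone.

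Leaving out each library in turn gave 8 to 14 higher and 1 to 7 lower in knockout differentiation, 8 to 14 and 3 to 13 in control differentiation, 0 to 4 and 1 to 4 in knockout EBs, 0 to 2 and 0 to 7 in knockout ESCs, and 0 to 2 and 0 to 0 for the difference. A group left with 1 library was assumed to vary like the others. Counts over all genes moved with the library left out as well.

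Same-numbered deviations correlated between -0.238 and 0.0373 over 11328 genes. They showed no common pairing by replicate number, but such correlations cannot exclude a shared batch. The replicate block changed 1 count by more than 1.5 times (4 in place of 7 that fell in knockout differentiation). Since the EB groups correlated at -0.238, a crossed pairing within the compared groups was added after seeing the data; it called 3 higher and 5 lower in knockout EBs, where the same-number block called 2 and 7, and the same-number block called 4 that fell in knockout differentiation. Depth limits the members under 1 CPM.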

Other observations

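Of 36 further named long non-coding RNAs found outside the members, 25 were tested. In knockout against control EBs 1 was higher and 2 lower (12%, beside 6.80% of all genes), and in ESCs 2 were higher and 2 lower (16%, near the 14.5% of all genes). H19, an imprinted RNA expressed from the maternal allele, had CPM values of 689.9 and 855 in knockout EBs, 417 and 423 in control EBs, 555 and 344 in knockout ESCs, and 157 and 168 in control ESCs, higher in knockout cells in both states and in EBs than in ESCs of each genotype, with no overlap between the knockout and control libraries of a state. Its log2 fold change of knockout over control was 0.88 ± 0.18 (adjusted p = 0.018) in EBs and 1.47 ± 0.19 (adjusted p = 0.000535) in ESCs (edgeR's quasi-likelihood test). Firre, an X-linked RNA of nuclear organisation, had CPM values of 102 and 96.8 in knockout EBs, 131 and 132 in control EBs, 71.4 and 60.2 in knockout ESCs, and 109 and 109 in control ESCs. Both knockout groups lay below their controls, with log2 fold changes of -0.40 ± 0.10 (adjusted p = 0.0393) in EBs and -0.73 ± 0.10 (adjusted p = 0.000937) in ESCs. Ftx, of the X-inactivation centre, was lower in knockout EBs, with a log2 fold change of -0.66 ± 0.17 (adjusted p = 0.0493).

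Zfas1, a snoRNA host without the Snhg name, had CPM values of 116 and 149 in knockout EBs, 139 and 154 in control EBs, 61.98 and 62.7 in knockout ESCs, and 67.7 and 73.4 in control ESCs, every EB library above every ESC library. It rose by 1.08 ± 0.13 (adjusted p = 0.000386) in knockout and 1.05 ± 0.13 (adjusted p = 0.000344) in control EBs, on the log2 scale. The microRNA processing factors Ago1 (-0.56 ± 0.10 (adjusted p = 0.00451)), Drosha (-0.38 ± 0.08 (adjusted p = 0.0109)) and Dicer1 (-0.37 ± 0.10 (adjusted p = 0.0342)) were lower in knockout than in control ESCs on the log2 scale. They were 3 of 10 tested (30%, beside 6.20% of all genes that were lower), and none was higher. These lists were chosen with results of the data known.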
